A study of Mus musculus with 7 samples.

Results

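The Bcl2 family decides whether a cell keeps or breaks its mitochondrial outer membrane, and 10 of its genes were followed here in single mouse embryos at the morula stage. The 10 members were taken by symbol from a table of 26586 genes: 4 survival members (Bcl2l10, Mcl1, Bcl2l1, Bcl2l2) and 6 death members (the effectors Bax, Bak1 and Bok, and the BH3-only genes Bcl2l11, Bid and Bik). All 10 have a row in the table. The series holds polyadenylated RNA from 7 embryos of the C57BL/6 background, taken at 3 days post coitum from pregnant L13a(+/-) females (L13a, or Rpl13a, is a ribosomal protein gene). The 7 embryos form 1 untreated group, called embryos 1 to 7 after the replicate numbers in their titles. Each title names an embryo from an L13a-/+ cross. Their own genotypes, sexes and litters are not given in the labels, so no groups were compared, and any spread between embryos may be technical. Which bases of L13a are missing in the mutant allele was not analysed here.

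Survival members bind and hold back the killers, effectors such as Bax and Bak1 form pores in the outer mitochondrial membrane, and BH3-only proteins sense damage and tip the balance by filling a groove on the survival members with their BH3 helix. Cytochrome c released through the pores activates Apaf1 and the caspases. Mcl1 has been known as essential for the early embryo since its knockout was found to fail around implantation, Bcl2l1 encodes Bcl-xL, and Bcl2l11 encodes Bim. Bcl2l10 (also called Boo or Diva) is a gene of the oocyte, and both protecting and killing activities have been reported for its mouse protein. It is counted among the survival members here because the member list places it there.

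The BH3 core is the short stretch that makes these proteins relatives, and its code is shown because 1 member lacks it in this form. A pattern of L or M, any 3 residues, then G and D was searched in the longest GENCODE M21 coding sequence of each member, with the G and D codons in capitals and residues counted from the start methionine. It was found once in each of 9 members, among them Mcl1 (residues 194 to 199 of 331), Bcl2l1 (90 to 95 of 233), Bax (63 to 68 of 192), Bok (71 to 76 of 213) and Bcl2l11 (150 to 155 of 196). The 27 bases from the first residue of the match read:
Mcl1: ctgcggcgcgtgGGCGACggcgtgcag
Bcl2l1: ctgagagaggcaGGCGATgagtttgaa
Bax: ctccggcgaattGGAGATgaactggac
Bok: ctgctgcgcttgGGAGATgagctggag
Bcl2l11: ctgcggcggatcGGAGACgagttcaac
Bcl2l10, whose protein has 191 residues, had 0 matches. Over all 21540 protein-coding genes read the same way, 16.0% hold the pattern, so a match by itself does not mark the family, and its lack in Bcl2l10 says only that these letters do not occur there.

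Depth differed so widely between the libraries that each value of 0 has to be read against its own limit. Totals ran from 139619 reads in embryo 6 to 33123742 in embryo 4, and 6.58% to 45.4% of all genes had a count. Rpl13a itself had 99, 1954, 4, 17558, 9, 1 and 403 reads, which assigns no genotype. With 3 counts as the floor, a gene without reads may still have reached 2.62, 0.182, 4.13, 0.0906, 1.09, 21.5 and 0.175 CPM (counts per 1000000 counted reads) in embryos 1 to 7. Intervals and floors here cover counting error alone, since the method carries no molecular identifiers, and in a whole embryo fewer cells of a kind and less RNA per cell cannot be told apart. The labelled stage was checked against 14 markers of the morula's lineages: embryo 4 had a count for all 14, embryos 1, 2, 3, 5 and 7 for 2, 9, 6, 5 and 7, and embryo 6 for 0. Cdx2 and Nanog were at 0 in all embryos but embryo 4, while Sall4 and Klf5 had a count in 6 embryos and Tfap2c in 5. Of 19 oocyte markers, 14, 18, 11, 12, 6, 7 and 18 were counted in embryos 1 to 7. Both sets of marker counts stand beside 19.3, 35.3, 13.1, 45.4, 12.7, 6.58 and 33.7% of all genes.

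The family was counted in every embryo, but no single member was. It took 5922, 1190, 672, 766, 374, 2249 and 2819 CPM in embryos 1 to 7, or 6774, 19577, 488, 25372, 1033, 314 and 48264 reads. The number of members with a count was 5, 8, 3, 8, 3, 2 and 6 of 10, beside 19.3, 35.3, 13.1, 45.4, 12.7, 6.58 and 33.7% of all genes. At least 1 read would be expected for 3, 6, 2, 6, 2, 2 and 6 members if every library had the depth of embryo 6, beside 3620, 6634, 2570, 8037, 2150, 1749 and 6409 of the 26586 genes. Embryos 2, 4 and 7 thus led for genes in general as they did for the members. Without embryo 5, Bcl2l10 and Bcl2l1 were counted in all the others.

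**Figure D1:**
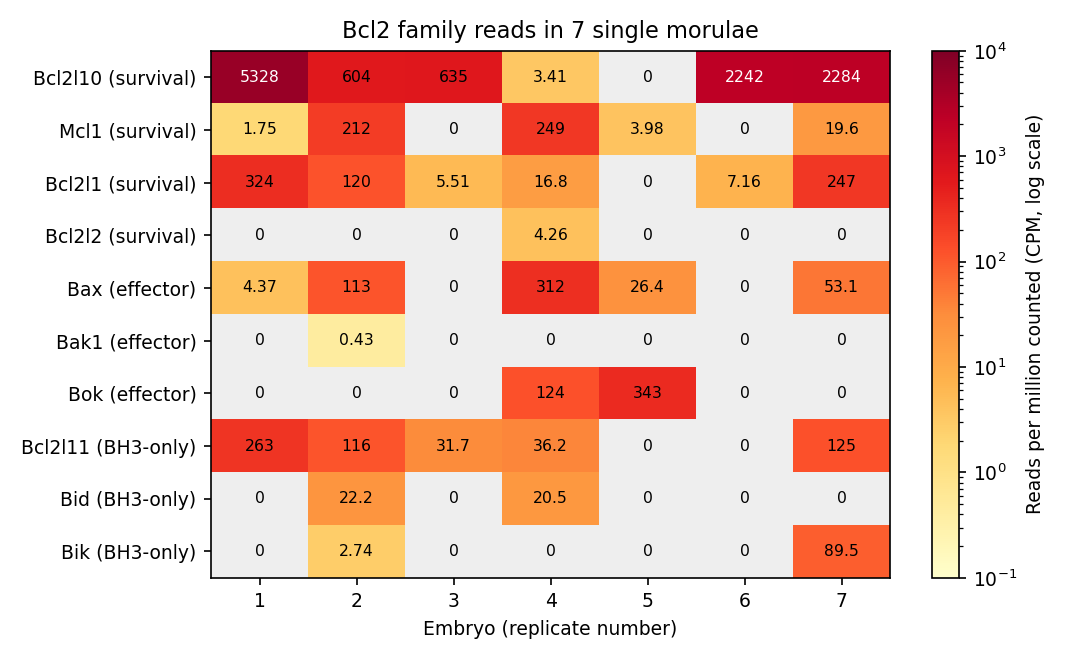
Library-scaled reads (CPM, colour on a log scale, value printed in each cell) for the 10 members (rows) in embryos 1 to 7 (columns); grey cells had 0 reads. Bcl2l10 leads in embryos 1, 2, 3, 6 and 7, Bax in embryo 4 and Bok in embryo 5.

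Among the survival members, Bcl2l10 was by far the most abundant in 5 embryos and at or near 0 in embryos 4 and 5. Its counts were 6095, 9944, 461, 113, 0, 313 and 39111 in embryos 1 to 7. On the CPM scale, with 95% Poisson intervals in brackets, embryo 1 had 5328 (5196–5464), embryo 2 had 604 (593–616), embryo 3 had 635 (579–696), embryo 4 had 3.41 (2.81–4.10), embryo 5 had 0, embryo 6 had 2242 (2000.3–2504) and embryo 7 had 2284 (2262–2307). The intervals of embryos 4 and 5 lie far under those of the other 5. Embryo 2, with 604 CPM, was 177-fold above embryo 4 and at least 557-fold above the floor of embryo 5. By read count Bcl2l10 was the 7th gene of embryo 1 and the 23rd of embryo 7, but the 9187th of 12064 counted genes in embryo 4. The deposited log2 table puts it at 12.47, 9.99, 8.79, -1.30, -2.65, 10.27 and 11.39 in embryos 1 to 7, where -2.65 stands for 0 reads. On GRCm38 the Bcl2l10 gene spans 75347758 to 75351632 of chromosome 9 (plus strand), with 1 annotated transcript of 1220 bases and no overlapping gene.

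Mcl1, the short-lived guardian that turns over within hours in most cells, was high in embryos 2 and 4. Its counts were 2, 3491, 0, 8234, 11, 0 and 336, or 1.75, 212, 0, 249, 3.98, 0 and 19.6 CPM in embryos 1 to 7. Embryo 4 was 142-fold above embryo 1 in CPM, though the interval of embryo 1, from 2 reads, runs from 0.212 to 6.32 CPM. In embryo 3 its 0 reads allow up to 4.13 CPM, at least 51.3-fold under embryo 2, while the floor of 21.5 CPM in embryo 6 lies above the level of embryo 7. The gene spans 95658788 to 95663176 on the plus strand of chromosome 3, with 3418 bases of exon.

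Bcl2l1 was counted in the same 6 embryos as Bcl2l10, and per kilobase of exon it was lower in all of them but embryo 4 (3.65 against 2.80 CPM per kilobase). Its counts of 371, 1968, 4, 555, 0, 1 and 4226 give 324, 120, 5.51, 16.8, 0, 7.16 and 247 CPM in embryos 1 to 7. Embryos 1, 2 and 7 are high, and embryo 5, with 0 reads, is at least 299-fold under embryo 1. The single read of embryo 6 has an interval of 0.181 to 39.9 CPM and places its level nowhere in this order. Bcl2l1 lies on chromosome 2 from 152780668 to 152831728, on the minus strand, with 9 annotated transcripts. Bcl2l2 (Bcl-w) had 141 reads in embryo 4 (4.26 CPM, 95% Poisson interval 3.58 to 5.02) and 0 in the other 6. It shares 4794 bases of chromosome 14 (54883377 to 54888234) with Gm20521, a coding gene on the same strand for which the count table has no row, so its reads are uncertain.

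Of the 3 effectors, Bax was the most widely counted, Bok was confined to 2 embryos in these counts, and Bak1 was all but uncounted. Bax counts were 5, 1852, 0, 10327, 73, 0 and 910, or 4.37, 113, 0, 312, 26.4, 0 and 53.1 CPM in embryos 1 to 7. Embryo 4 stands highest, 71.3-fold above embryo 1, and embryo 2 is next. The gene lies on chromosome 7 from 45461697 to 45466898 on the minus strand, 333 kilobases from Rpl13a, the gene that carries the mutation in the parents. It overlaps the coding gene Gm45808 on the same strand over 915 bases, and the table has no row for that gene.

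Bok, a Bax relative that survival proteins restrain poorly, had 4122 reads in embryo 4 and 949 in embryo 5, and 0 in the other 5 embryos. These are 124 CPM (95% Poisson interval 121 to 128) and 343 CPM (322 to 366). The deep libraries of embryos 2 and 7 allow at most 0.182 and 0.175 CPM, so embryo 4 was at least 682-fold and 710.2-fold above them. In embryos 1, 3 and 6 the limits are 2.62, 4.13 and 21.5 CPM, also under both values. The 2 embryos with Bok are those with little or no Bcl2l10, a pair picked from 45 after the values were seen. Bok lies on chromosome 1 from 93685660 to 93695764, on the plus strand, with no overlapping gene. Bak1, the other pore former, had 7 reads in embryo 2 (0.425 CPM, 95% Poisson interval 0.171 to 0.877) and 0 elsewhere, also in embryo 4, where the limit is 0.0906 CPM. It lies on chromosome 17 (27019810 to 27029009) within Ggnbp1, an opposite-strand gene at 0 in all 7 embryos.

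The BH3-only genes each had a pattern of their own. Bcl2l11, whose protein Bim binds all main survival members, had 301, 1904, 23, 1200, 0, 0 and 2148 reads, or 263, 116, 31.7, 36.2, 0, 0 and 125 CPM in embryos 1 to 7. It was thus counted in 5 embryos, highest in embryo 1, and its floor of 1.09 CPM in embryo 5 lies at least 33.4-fold under embryo 4. The gene is on chromosome 2, plus strand, from 128126038 to 128162547, with 8029 bases of exon. Bid, which links death receptors to mitochondria once caspase-8 cuts it, had 366 reads in embryo 2 (22.2 CPM) and 680 in embryo 4 (20.5 CPM), and 0 in the others. Its locus on chromosome 6 (120891930 to 120916853) overlaps Bcl2l13 on the opposite strand over 913 bases. Bcl2l13 had 976, 1153, 26 and 3583 reads in embryos 2, 4, 5 and 7. Gm17812 and Gm44260 also lie within Bid and have no row in the table. The library method keeps no strand, so reads in the shared bases cannot be told apart. Bik, a BH3-only protein of the endoplasmic reticulum, had 1533 reads in embryo 7 (89.5 CPM), 45 in embryo 2 (2.74 CPM) and 0 elsewhere. Embryo 7 was 32.7-fold above embryo 2 and at least 989-fold above the limit in embryo 4. Bik lies on chromosome 15 from 83526862 to 83544634, with a processed pseudogene, Gm46495, on the opposite strand inside it.

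Survival members held most of the family's reads in 5 embryos and a minority in embryos 4 and 5. Their share, with 95% Clopper-Pearson limits in brackets, was 95.5% (94.96–95.97) in embryo 1, 78.7% (78.1–79.3) in embryo 2, 95.3% (93.0–97.0) in embryo 3, 35.6% (35.1–36.2) in embryo 4, 1.06% (0.533–1.90) in embryo 5, 100% (98.8–100) in embryo 6 and 90.5% (90.2–90.7) in embryo 7. The median was 90.5%. Embryo 5 is lowest, with 11 survival reads against 1022 death reads, and embryo 4 is next, with 9043 against 16329. Because the shares are taken within a library, its total does not enter them.

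**Figure D2:**
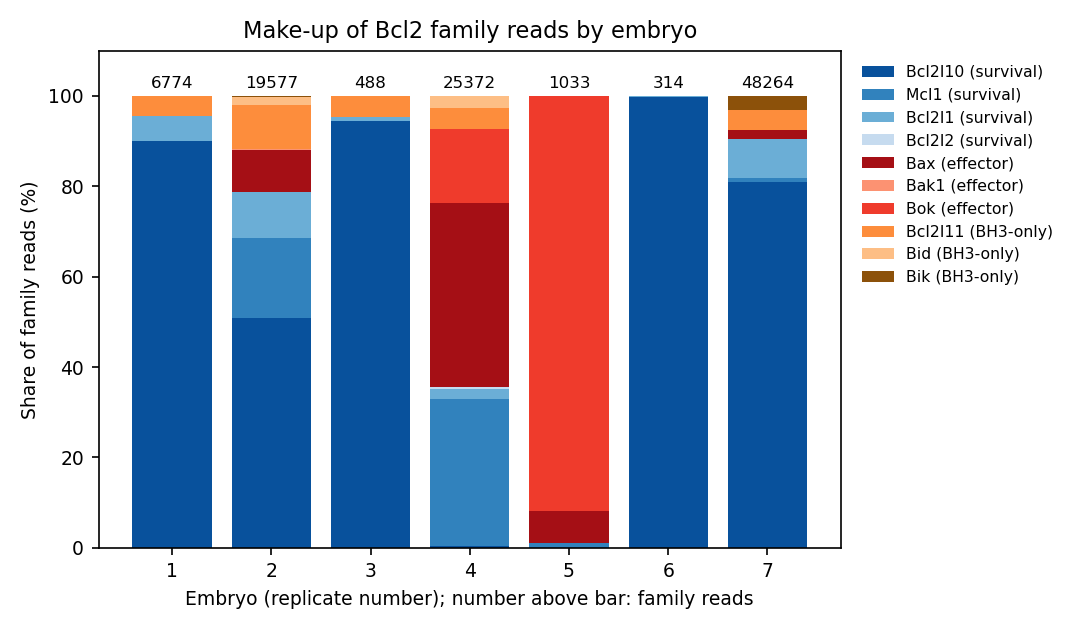
Stacked bars give each member's share (%) of the family's reads in embryos 1 to 7, survival members in blues, effectors in reds and BH3-only members in oranges and brown; the number above a bar is the family's reads. Bcl2l10 fills from 50.8% (embryo 2) to 99.7% (embryo 6) of the bar in 5 embryos, and Bok fills 91.9% in embryo 5.

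The lead of the survival members rested on Bcl2l10. It made up 90.0, 50.8, 94.5, 0.445, 0, 99.7 and 81.0% of the family's reads in embryos 1 to 7. With Bcl2l10 left out, the survival share was 54.9% (51.1–58.7), 56.7% (55.7–57.7), 14.8% (4.19–33.7), 35.4% (34.8–35.9), 1.06% (0.533–1.90) and 49.8% (48.8–50.9) in embryos 1, 2, 3, 4, 5 and 7, with the same limits in brackets. Embryo 6 then had 1 family read, which gives no usable share. The median over embryos was 49.8% in place of 90.5%. In embryos 1, 2 and 7 the 3 other survival members and the 6 death members were thus within a few points of equal in reads, at 326 against 268, 332 against 254 and 266 against 268 CPM.

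**Figure D3:**
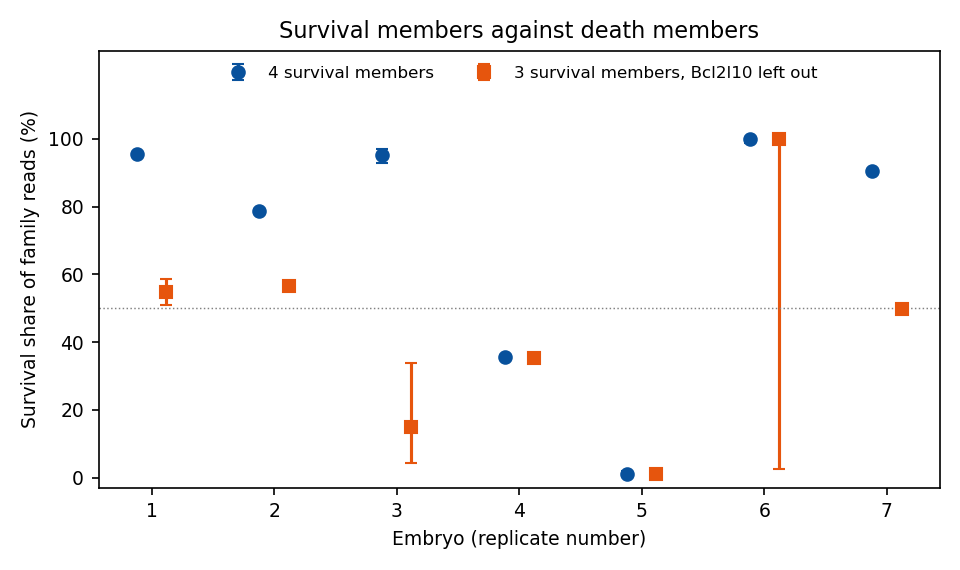
Share (%) of family reads from survival members in embryos 1 to 7, with all 4 (circles) and without Bcl2l10 (squares); bars are 95% Clopper-Pearson intervals, for counting error alone, and the dotted line marks equal reads. Leaving out Bcl2l10 moves embryos 1, 2, 3 and 7 down and leaves embryo 4 at 35.4 in place of 35.6% and embryo 5 at 1.06%, and the square of embryo 6 rests on 1 read.

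Per kilobase of exon, the scale on which genes can be compared, survival members led in the same 5 embryos. The log2 ratio of survival to death members per kilobase was 6.96, 2.63, 6.97, -1.78, -7.38, 10.67 and 4.19 in embryos 1 to 7, a mean of 3.18 ± 6.09 (SD, n = 7), and above 0 in 5 embryos. Embryo 6 had 314 survival reads and 0 death reads, so the size of its ratio, 10.67, depends on the count added to each class. It is thus not a measured ratio, and the mean over the 7 embryos includes it. The mean was 4.94 without embryo 5 and 1.93 without embryo 6. Without Bcl2l10 the mean was -1.38 ± 2.89 and 2 embryos were above 0, among them embryo 6 with its single read. Embryos 1, 2 and 7, near equal in reads, were then at 0.999, -0.0925 and -0.826. Near equality thus did not hold per kilobase in embryos 1 and 7. On this scale the members' mean log2 levels (CPM per kilobase, n = 7) were, from the top, Bcl2l10 at 7.25 ± 5.33, Bax at 2.87 ± 4.32, Bcl2l1 at 2.15 ± 3.82, Mcl1 at 1.08 ± 4.33, Bcl2l11 at 1.05 ± 4.32, Bok at -0.05 ± 4.95, Bik at -0.95 ± 3.34, Bid at -1.93 ± 3.36, Bak1 at -3.09 ± 0.64 and Bcl2l2 at -3.56 ± 1.76. No neighbours in this order differed by more than the SD of their difference within embryos. The widest step, Bcl2l10 over Bax, was 4.38 ± 8.12 with Bcl2l10 higher in 5 of 7 embryos. Values of genes at 0 depend on the prior count of 2 used for the log scale and on exon length. Bak1 and Bcl2l2, last in the order, are such genes in all but 1 embryo each. By highest CPM per kilobase, Bcl2l2 (0.954) stood above Bak1 (0.177).

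Effectors and BH3-only genes also divided the death side differently by embryo. In embryo 4 effectors took 436 CPM against 56.8 CPM of BH3-only genes, and in embryo 5 all 1022 death reads were of effectors. In embryo 1 the order was the other way, with 4.37 CPM of effectors against 263 CPM of BH3-only genes, and in embryo 7 it was 53.1 against 215 CPM. Embryo 2 had 113 and 141 CPM.

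A survival and a death member, Mcl1 and Bax, ran in the same order over the embryos. Mcl1 and Bax were both counted in embryos 1, 2, 4, 5 and 7 and both at 0 in embryos 3 and 6, and for each gene the order from the top was embryo 4, 2, 7, 5 and 1. Reads of Mcl1 per read of Bax were 1.88, 0.797, 0.151 and 0.369 in embryos 2, 4, 5 and 7, or 0.869, 0.368, 0.0695 and 0.170 per kilobase. Per kilobase, Bax thus stood above Mcl1 in each of these 4 embryos. Bcl2l1 and Bcl2l11 shared the order of their 4 highest embryos (1, 7, 2 and 4) but not of the rest, with 1.23, 1.03, 0.174, 0.463 and 1.97 reads of Bcl2l1 per read of Bcl2l11 in embryos 1, 2, 3, 4 and 7. Both pairs were picked from 45 after their values were seen and are descriptions.

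For 8 of the 10 members an upstream sequence is in the RefSeq table of GRCm38.p6, all but Bcl2l10 and Bik. Those of Mcl1 and Bax are shown since these genes ran in the same order, with the GC box letters GGGCGG, on either strand, in capitals. The 250 bases before the start, on the gene's own strand, are chr3:95658471-95658720 (plus strand) for Mcl1 and chr7:45466899-45467148 (minus strand) for Bax:
Mcl1: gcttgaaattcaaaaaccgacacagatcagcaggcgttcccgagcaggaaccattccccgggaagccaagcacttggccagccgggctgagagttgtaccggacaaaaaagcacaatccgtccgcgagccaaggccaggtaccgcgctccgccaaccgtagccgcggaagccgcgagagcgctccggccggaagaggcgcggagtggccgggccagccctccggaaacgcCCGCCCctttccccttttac
Bax: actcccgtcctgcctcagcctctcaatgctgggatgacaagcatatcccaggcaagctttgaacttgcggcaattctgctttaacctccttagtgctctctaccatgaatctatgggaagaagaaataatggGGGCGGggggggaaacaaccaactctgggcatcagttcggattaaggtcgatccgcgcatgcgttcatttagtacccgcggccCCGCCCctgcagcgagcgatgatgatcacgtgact
The Mcl1 stretch holds 1 match and the Bax stretch 2, beside at least 1 in 32.7% of the 32851 upstream stretches of this length in the table. CCAAT and TATAAA, searched on both strands, match 0 times in either stretch (33.9% and 12.4% of all stretches hold them), and CACGTG matches once in Bax and 0 times in Mcl1 (6.02% of all). The matches do not overlap each other. GC content is 64.4% for Mcl1 and 54.0% for Bax, with a median of 52.4% over all stretches. A match is a run of letters and not a shown binding site.

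The spread of the members between embryos was tested across the whole table, but the test could make no call at the spread of these embryos. With the edgeR quasi-likelihood dispersion test, which asks whether a gene varies more than genes of like abundance, 0 of 8 tested members passed (adjusted p 0.869 to 0.870), and 0 of 11810 genes did, a background of 0%, the genes of every list used here included. On simulated data with a low dispersion the test found most genes of raised spread, and at the dispersion of these embryos it found none of them, so its lack of calls here says nothing about any gene. At an unadjusted p under 0.05 there were 67 genes (0.567%, far under 5%) and 0 members, and DESeq2 marked 0 genes as dispersion outliers. limma on the authors' log2 table called 2 of 11810 genes (0.0169%), neither of them a member, and the lowest member p there was that of Bcl2l10 (unadjusted p 0.00174, limma adjusted p 0.88). The limma and DESeq2 versions were not checked on simulated data. Bcl2l2 and Bak1, with a mean CPM under 1, were not tested. The median SD of log2 CPM was 4.32 over the 8 tested members and 3.63 over all 11810 genes. These 8 passed a filter on mean level that a gene high in 1 embryo can pass, so their SD says little about the family. A p over the threshold does not show that the embryos were alike, and with 1 group the spread of a gene cannot be parted from that of its library.

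The oocyte markers were lowest in sum in embryos 4 and 5, as Bcl2l10 was, but the order of the other 5 embryos differed. The 19 oocyte markers summed to 10409, 11298, 12058, 4120, 692, 7241 and 19172 CPM in embryos 1 to 7. Among the other 5, Bcl2l10 was highest in embryo 1 and the marker sum in embryo 7. Dppa3 made up 4059 CPM of the sum in embryo 4. Bmp15, a growth factor of the egg, was at 1893, 488, 2939, 0.0604, 0, 279 and 2113 CPM. It is 1 marker of the 19 and was picked after its values were seen. Not every marker was lowest in embryos 4 and 5, as Padi6, Tle6 and Ooep were lower in embryo 3 than in embryo 4. The 14 lineage markers summed to 136, 827, 1230, 5154, 778, 0 and 399 CPM, highest in embryo 4, where Mcl1 and Bax were highest too. Elsewhere the order differed, as embryo 3, next by this sum, had 0 reads of both genes. Bok was highest in embryo 5. What part either list has in the members' levels was not tested.

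**Figure D4:**
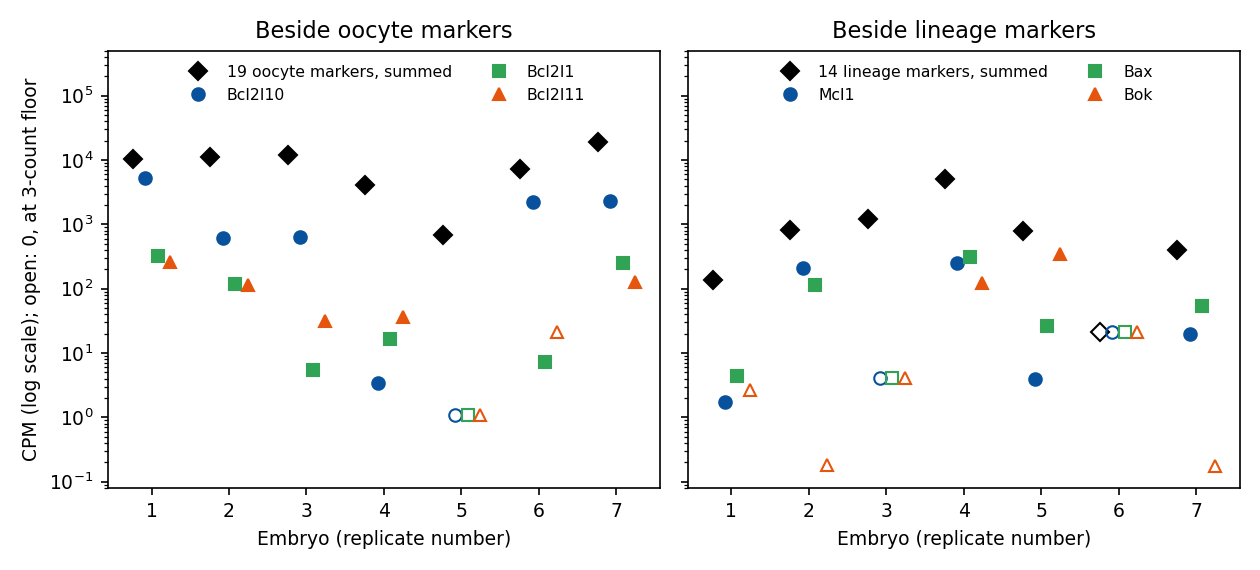
CPM (log axis) in embryos 1 to 7 of the summed oocyte markers beside Bcl2l10, Bcl2l1 and Bcl2l11 (left) and of the summed lineage markers beside Mcl1, Bax and Bok (right); open symbols had 0 reads and are drawn at the floor of 3 counts. Bcl2l10 and the oocyte sum are both lowest in embryos 4 and 5, and Mcl1, Bax and the lineage sum are highest in embryo 4. Embryo 3, next by the lineage sum, has 0 reads of Mcl1 and Bax, and Bok is highest in embryo 5.

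Among the 5 genes most like Bcl2l10 over the 7 embryos were Spin1 (Pearson r 0.989, Spearman rho 0.893), Eif4e1b (0.989 and 1), Sh3rf1 (0.983 and 0.857) and Cnot6l (0.982 and 0.857), out of 4889 genes compared on log2 CPM. Eif4e1b, an oocyte form of the cap-binding protein, was at 114, 12.1, 22.0, 0.725, 0, 71.6 and 88.8 CPM in embryos 1 to 7. Cnot6l, a deadenylase that shortens maternal messengers, was at 1103, 303, 1016, 7.88, 0, 1275 and 1158 CPM. An r of 0.9 or more was reached by 88 genes. For Bcl2l11, the death member of highest median CPM (36.2 against 26.4 for Bax, while per kilobase Bax was higher, at 16.8 against 4.51), the nearest were Thap11, Rab6a, Cdkn2d, Romo1 and 5730494N06Rik (r from 0.994 to 0.997, rho from 0.964 to 1), and 318 genes reached 0.9. All 5 of these are at 0 in embryos 5 and 6, as Bcl2l11 is. The points share library depth, and r over 7 points, picked from 4889 genes, is a description of likeness alone.

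Markers of the mother's tract and of blood were read beside these values. The 10 oviduct and uterine epithelium markers summed to 1153, 1917, 0, 45.7, 1.81, 6289 and 257 CPM in embryos 1 to 7. Of them 4, 9, 0, 2, 1, 4 and 7 were counted, beside 19.3, 35.3, 13.1, 45.4, 12.7, 6.58 and 33.7% of all genes. In embryo 3 none of the 10 had a read, though each may have reached 4.13 CPM, and Bcl2l10 was at 635 CPM. Embryo 4, highest for Mcl1 and Bax, had reads of Muc1 (36.7 CPM) and Wfdc2 (8.94 CPM) and 0 of the other 8. Embryo 2 held 9 of these markers and is also the embryo with reads of Bak1. What part the mother's tract has in the member reads of any embryo was not tested. Of 7 blood markers in the table, at most 2 were counted in any embryo, with a sum of 444 CPM in embryo 6 and at most 4.37 CPM elsewhere, and Cd74 and S100a8 were at 0 in all. Cumulus and granulosa markers summed to 12.03 CPM in embryo 2 and 0.362 CPM in embryo 5, with 7 of 9 at 0 in all, Amh and Foxl2 among them. Of the 3 sperm markers, Prm1 and Prm2 gave 1.57 CPM in embryo 4 and Prm2 22.0 CPM in embryo 7.

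Other relatives of the family were counted most in embryos 2 and 4, as genes in general were. Of 16 further genes, 3, 9, 1, 10, 4, 0 and 4 had a count in embryos 1 to 7, beside 19.3, 35.3, 13.1, 45.4, 12.7, 6.58 and 33.7% of all genes. Highest by median were Bnip3l and Bnip3, mitophagy receptors related to the BH3-only genes, and Bcl2l13, also a mitophagy receptor. Bnip3l was at 74.3, 81.1, 237, 223, 869, 0 and 237 CPM in embryos 1 to 7, Bnip3 at 0, 358, 0, 315, 181, 0 and 44.9 CPM, and Bcl2l13 at 0, 59.3, 0, 34.8, 9.41, 0 and 209 CPM. Bcl2, the founding survival gene, had 414 reads in embryo 2 (25.2 CPM) and 0 in the other 6, with a limit of 0.0906 CPM in embryo 4. The p53-induced BH3-only genes Bbc3 (Puma) and Pmaip1 (Noxa) were at 8.60 and 23.8 CPM in embryo 4, and Pmaip1 also at 1.15 CPM in embryo 2, with 0 elsewhere. Bad had 3244 reads in embryo 4 (97.9 CPM) against 23 in embryo 2 and 7 in embryo 7. Bcl2a1a, Bcl2a1b, Bcl2a1c, Bcl2a1d and Hrk had 0 reads in all embryos. The 4 Bcl2a1 genes are near-identical copies, for which reads that match several copies may be dropped or split. Genes named here beyond the 3 highest and those at 0 were chosen after their values were seen.

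**Figure D5:**
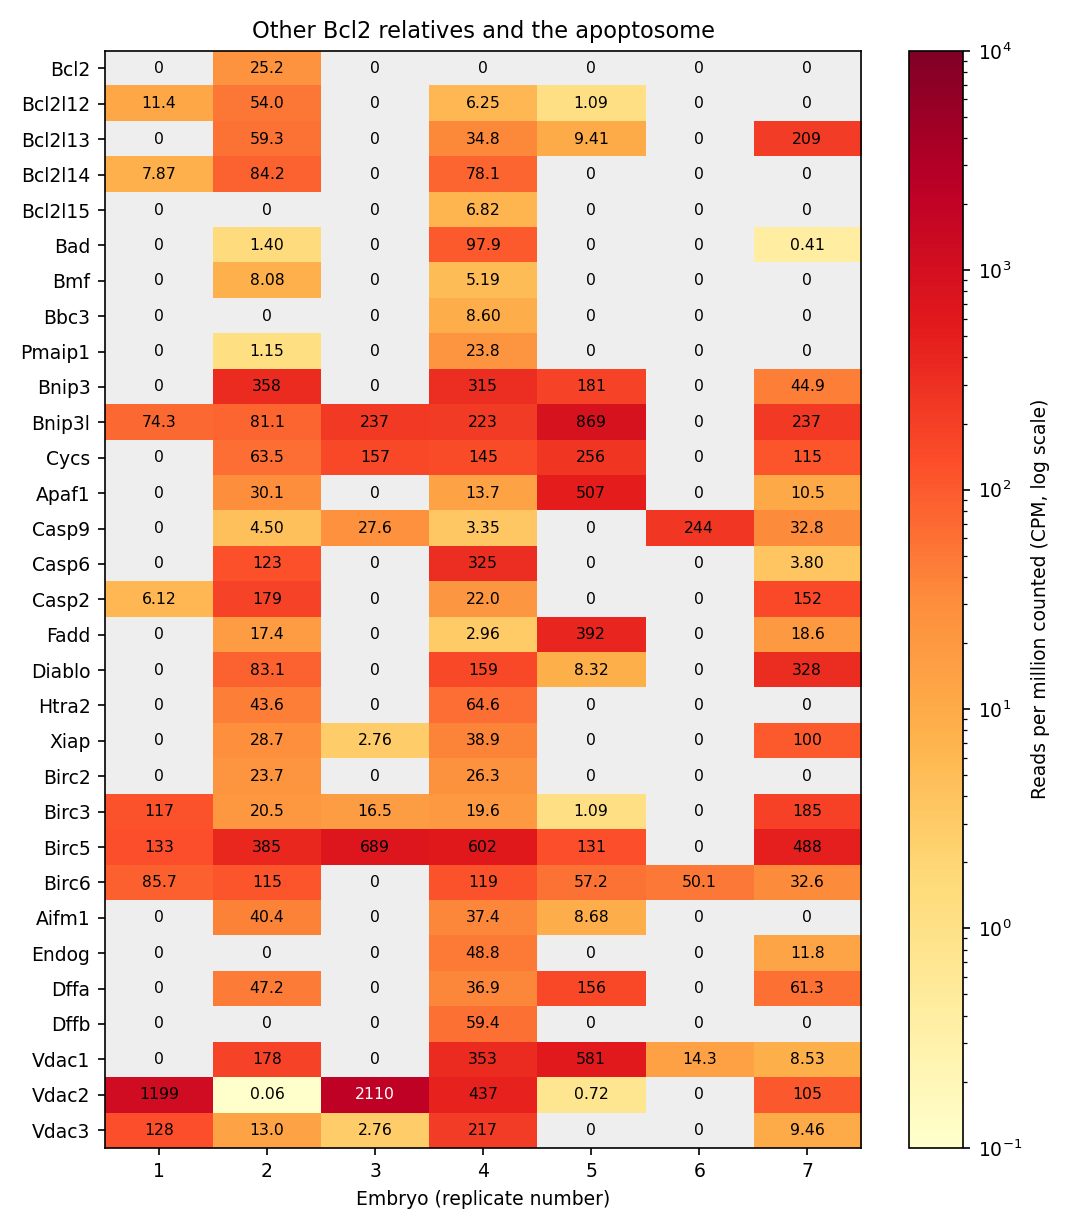
CPM (colour on a log scale, value printed in each cell) in embryos 1 to 7, where grey cells had 0 reads. Drawn are 11 further family genes and 20 of the 23 apoptosome, caspase and inhibitor genes, all with a read in some embryo. Embryos 2 and 4 hold most of the genes, and embryo 6 holds 3 of those drawn.

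Of 23 genes listed with the apoptosome, the caspases and their inhibitors, 7, 19, 7, 22, 11, 4 and 16 were counted in embryos 1 to 7. These counts stand beside 19.3, 35.3, 13.1, 45.4, 12.7, 6.58 and 33.7% of all genes, and embryos 2, 4 and 7 led for both. Birc5 (survivin), which serves in cell division as well as in blocking caspases, had the highest median, with 133, 385, 689, 602, 131, 0 and 488 CPM. Cycs, cytochrome c itself, was at 0, 63.5, 157, 145, 256, 0 and 115 CPM. Vdac2, the mitochondrial channel that holds Bak1 in check, was at 1199, 0.0608, 2109.6, 437, 0.723, 0 and 105 CPM. It was low in embryo 2, where Bak1 had 7 reads, and also in embryo 5, where Bak1 had 0. Apaf1, the platform that cytochrome c activates, was highest in embryo 5, with 507 CPM against 30.1, 13.7 and 10.5 CPM in embryos 2, 4 and 7, and Fadd, an adaptor of death receptors, stood at 392 CPM there. In embryo 5, Casp9 and Casp6 had 0 reads, with a limit of 1.09 CPM. Casp8, which cuts Bid, had 0 reads in all 7 embryos, which allows at most 0.0906 CPM in embryo 4.

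Enzymes that set the life of the Mcl1 protein were read for comparison. The ubiquitin ligase Huwe1 was counted in all 7 embryos, at 91.8, 169, 324, 433, 85.4, 21.5 and 146 CPM, where the value of embryo 6 rests on 3 reads. The deubiquitinase Usp9x was at 84.0, 719 and 277 CPM in embryos 2, 3 and 7 and at 0 in embryos 1 and 5, with 497 reads in embryo 4 and 1 in embryo 6, and Fbxw7 had a median of 0.874 CPM and a highest value of 69.6 CPM in embryo 7. Of the p53 inputs, the inhibitor Mdm4 was at 819, 366, 3981, 35.3, 2918, 0 and 402 CPM, Cdkn1a at 87.4, 112, 4.13, 141, 0, 0 and 47.0 CPM, and Mdm2 at 87.4, 16.1, 1.38, 47.2, 17.0, 7.16 and 49.1 CPM. Trp53 was counted in embryos 2, 4 and 7, at 170, 125 and 3.15 CPM. Apaf1, Fadd, Trp53, Casp9 and Casp6 were named after their values were seen. So were Bmp15, Padi6, Tle6, Ooep, Cdx2, Nanog, Muc1, Prm1 and Prm2.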

How the data were processed

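The members and gene lists were chosen with earlier results of these data known. Per the labels' protocols, RNA input was evened out, SMART-Seq v4 copied the polyadenylated RNA and the Nextera XT kit made the libraries. These kits do not mark strand. The deposited count table holds raw read counts per gene symbol. HISAT2 2.0.5, featureCounts 1.5.0-p2, limma and GRCm38 are named in the submitters' processing notes. The sources used here give neither settings nor annotation. The deposited log2 values were recomputed from the counts as quantile-normalized log2 CPM, within 4.97e-14. Columns were matched to embryos by the number that ends each title.

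CPM are counts over the library total. Log2 CPM used TMM factors and a prior count of 2 (edgeR 4.0.16, R 4.3.3). Lengths are unions of exons in GENCODE M21 (GRCm38). In the class ratio, 0.5 counts were added to each class. The edgeR test was run on genes averaging at least 1 CPM, as a one-sided F test of the intercept-only fit over all 7 embryos, with p-values adjusted by Benjamini-Hochberg at 0.05. Checked on simulated data, it worked at a low dispersion and made no call at the dispersion of these embryos. limma 3.58.1 and DESeq2 1.42.0 served as alternatives. Genes compared for likeness had a mean CPM of 10 or more and a count in at least 4 embryos. Named were all members, the 5 genes most like the highest survival and death member, overlapping genes, and of each list the 3 highest by median and those at 0 throughout. A few genes that this rule or the lists cover are not reported here by name, but stay in the counts.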

Additional observations from a re-analysis of the deposited data

Results flagged for a closer look

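Of 12 sets of 7 values checked (CPM of the 10 members, the survival share and the class ratio), 6 had 1 embryo far from the rest, a gap to the next value of over 0.568 of the range. Chance gives this in about 1 set in 20 for normally distributed values, which these CPM are not, so the number of sets past the limit is not set against chance. Bcl2l2 and Bak1, with reads in 1 embryo each, pass it by construction, and Bok and Bik had reads in 2. The embryo that stood apart was embryo 1 for Bcl2l10 (5328 CPM), embryo 4 for Bax (312 CPM) and Bcl2l2 (4.26 CPM), embryo 5 for Bok (343 CPM), embryo 7 for Bik (89.5 CPM) and embryo 2 for Bak1 (0.425 CPM, from 7 reads).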

How the results depend on the processing

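Leaving out Bcl2l10 lowered the median survival share to 49.8% and the embryos with survival above death per kilobase from 5 to 2. It also took the mean log2 class ratio from 3.18 to -1.38, a change of sign that still lies within 1 SD of 6.09. Members counted in every embryo numbered 0, and from 0 to 2 when single embryos were left out (2 without embryo 5). The other share and ratio alternatives were per kilobase, without Mcl1, members with 10 reads or more, and no length. They also took the longest transcript, effectors alone, another offset, and single embryos left out. None moved median or mean by 1 SD. That limit is the wide SD between embryos, 37.9 percentage points for the share and 6.09 for the ratio. Leaving out 1 embryo could hardly pass it, so this does not show stability. Without embryos 5 and 6, an alternative chosen after seeing the data, the share was 90.5% and the ratio 3.79. Members past the test of spread numbered 0 in every alternative, which says nothing of stability since the edgeR test found no raised gene on simulated data of this dispersion, and limma on the authors' table called 2 genes (Siah2 and Zbed3) where edgeR called 0. The cause was not tested. Of 120 alternative mean levels of members, 119 were within 1 SD, a limit that those with 1 embryo left out could hardly pass. The exception was Bak1, at -3.59 with a prior count of 0.5 against -1.82. Depth limits embryo 6 most, where 0 reads allow 21.5 CPM.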
